A study of Mus musculus with 6 samples.

Results

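The genes described here encode the proteasome without its immunosubunits. They cover the 20S core particle, the 19S regulatory particle and the chaperones that assemble the base of the 19S particle. The activators that can cap the core in place of 19S are included too. All genes were chosen by symbol. Every gene identifier whose mouse symbol starts with Psma, Psmb, Psmc, Psmd or Psme followed by a digit was taken, except the interferon-inducible immunosubunits Psmb8, Psmb9 and Psmb10. Of 16058 genes in the files the rule took 43. Of these, 41 encode proteasome proteins: 8 alpha and 8 beta subunits of 20S, 6 ATPases and 11 non-ATPase subunits of 19S, 3 base assembly chaperones and 5 activators. The other two, Psmc3ip and Psme3ip1, encode proteins named for binding a proteasome protein and are not counted among the 41. Not all of the 41 are constitutive. Psma8 and Psmb11 encode tissue-restricted forms, and the activators Psme1 and Psme2 are interferon-inducible. The symbols of 6 reference pseudogenes also matched the rule and were listed in no library. Adrm1 and Sem1 encode 19S subunits whose symbols the rule does not take, and they are given with the related genes.

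Cells called macrophages by the submitters were sorted from the spleen of C57BL/6 mice aged 6 to 8 weeks into 3 gates, Ly6chiF4/80lo, Ly6cloF4/80lo and Ly6cloF4/80hi. Each gate was sequenced once in the normal state (day 0, controls) and once in T-ALL, T cell acute lymphoblastic leukemia, at day 15 after mice that were not irradiated received 1000000 GFP+ leukemia cells each, taken from leukemic animals. Recipients survived 35 to 40 days. The labels give no sex, no genotype beyond the strain, no number of mice per sort and no batch, and they do not say whether the gates of a state came from separate mice. With 1 library per gate and state, p-values here reflect the spread among sorted fractions and nothing more.

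The proteasome is the main protease for ubiquitin-tagged proteins in the cytosol and nucleus. The 19S particle binds and removes the ubiquitin chain, its ATPase ring unfolds the protein, and the catalytic beta subunits inside the 20S barrel cleave it into peptides. In macrophages and other antigen-presenting cells the constitutive catalytic subunits share the core with immunosubunits, and the peptides feed presentation on MHC class I.

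Promoter sequences are shown for 7 members, picked with the results known. Psmb4 and Psma5 had the largest increases, Psmb5 encodes the main drug target of the core, Psmc6 was called higher, Psmd4 was not called, and Psmb11 and Psme2b were called lower. Each is the 150 bases before the annotated start of transcription in RefSeq, assembly GRCm38.p6, written 5′ to 3′ on the strand of the gene. Capitals mark matches on either strand to TGACNNNGC, the core letters of the antioxidant response element bound by NRF-family factors, to CCGGAAG, the core of motifs bound by ETS-family factors, or to CCAAT. The printed stretches of Psmb4, Psma5, Psmb11 and Psme2b hold none of these. Members that rose and members that fell are therefore both among those without a match in the 150 bases. Psmb11 has a CCAAT further out, at position -155 from its start. The positions are chr3:94886959-94887108 on the minus strand for Psmb4, chr3:108256776-108256925 on the plus strand for Psma5, chr14:54617996-54618145 on the minus strand for Psmb5, chr14:45329674-45329823 on the plus strand for Psmc6, chr3:95042615-95042764 on the minus strand for Psmd4, chr14:54625160-54625309 on the plus strand for Psmb11 and chr11:48946411-48946560 on the minus strand for Psme2b.
Psmb4: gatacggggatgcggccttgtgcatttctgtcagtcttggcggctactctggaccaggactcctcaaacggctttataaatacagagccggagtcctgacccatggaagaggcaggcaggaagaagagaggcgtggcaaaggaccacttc
Psma5: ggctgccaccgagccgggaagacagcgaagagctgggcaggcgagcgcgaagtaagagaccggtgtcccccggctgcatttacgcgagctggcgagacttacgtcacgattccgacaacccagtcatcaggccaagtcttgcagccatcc
Psmb5: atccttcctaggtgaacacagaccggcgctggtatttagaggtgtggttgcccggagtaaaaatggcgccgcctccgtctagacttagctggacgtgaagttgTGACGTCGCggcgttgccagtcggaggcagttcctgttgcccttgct
Psmc6: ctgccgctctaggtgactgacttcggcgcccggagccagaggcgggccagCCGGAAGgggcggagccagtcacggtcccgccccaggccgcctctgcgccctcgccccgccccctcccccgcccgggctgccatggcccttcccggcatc
Psmd4: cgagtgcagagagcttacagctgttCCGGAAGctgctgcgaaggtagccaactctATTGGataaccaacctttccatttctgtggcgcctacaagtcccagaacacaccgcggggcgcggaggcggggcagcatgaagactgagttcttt
Psmb11: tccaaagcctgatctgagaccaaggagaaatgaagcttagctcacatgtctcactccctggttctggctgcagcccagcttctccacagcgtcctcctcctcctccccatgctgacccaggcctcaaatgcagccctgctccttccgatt
Psme2b: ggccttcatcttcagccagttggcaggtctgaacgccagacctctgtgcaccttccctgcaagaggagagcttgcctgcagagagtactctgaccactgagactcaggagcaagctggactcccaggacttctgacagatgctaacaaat

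Levels are FPKM, fragments per length of transcript and per mapped fragments of the library, so they can be compared between genes. The 41 genes were listed in all 6 libraries and all passed the filter for testing, at least 1 FPKM in at least 2 libraries, which 11616 genes passed. Their FPKM values summed to 3842, 3951 and 3366 in normal Ly6chiF4/80lo, Ly6cloF4/80lo and Ly6cloF4/80hi, and to 5275, 5372 and 5350 in T-ALL in the same order of gates, which is kept below wherever 3 values are given. As a share of all FPKM in a library they held 0.747%, 0.741% and 0.681% in normal and 0.904%, 0.971% and 0.930% in T-ALL. All 3 T-ALL sums lay above all 3 normal sums. These are bulk samples, so a change in how many cells of a type a gate held and a change in RNA per cell cannot be told apart.

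Depth estimated from the spacing of low FPKM values was 6580000 to 8570000 fragments per library. The best depth scored 0.445 to 0.567 per library, beside 0.312 to 0.388 for a depth ranked lower, so the estimate is approximate. At the estimated depth a transcript of 1 kb at 100 FPKM carries a counting error of 3.42% to 3.90%. At 10 FPKM it is 10.8% to 12.3%, before any biological spread. Defining genes of macrophages, among them Csf1r and Cd68, were present in every library. Csf1r ranged from 218 to 1488 FPKM and Cd68 from 166 to 601 FPKM over the 6 libraries. Mertk and Fcgr1 were low in Ly6cloF4/80lo, where the normal library held 4.76 and 3.48 FPKM and the leukemic one 1.34 and 2.45 FPKM. Mertk was also low in Ly6chiF4/80lo, at 3.84 FPKM in normal and 1.81 FPKM in T-ALL. Fcgr1 stood at 19.6 and 6.27 FPKM in that gate. The summed macrophage list ranged from 2916 to 13702 FPKM in the normal libraries and from 1923 to 6758 FPKM in T-ALL, and in normal Ly6chiF4/80lo Lyz2 alone gave 12010 FPKM of it. Markers of other cells were present too, and none of the listed ones stood at 0. Lists of these markers moved with state, and their values are given beside the results they touch.

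**Figure D1:**
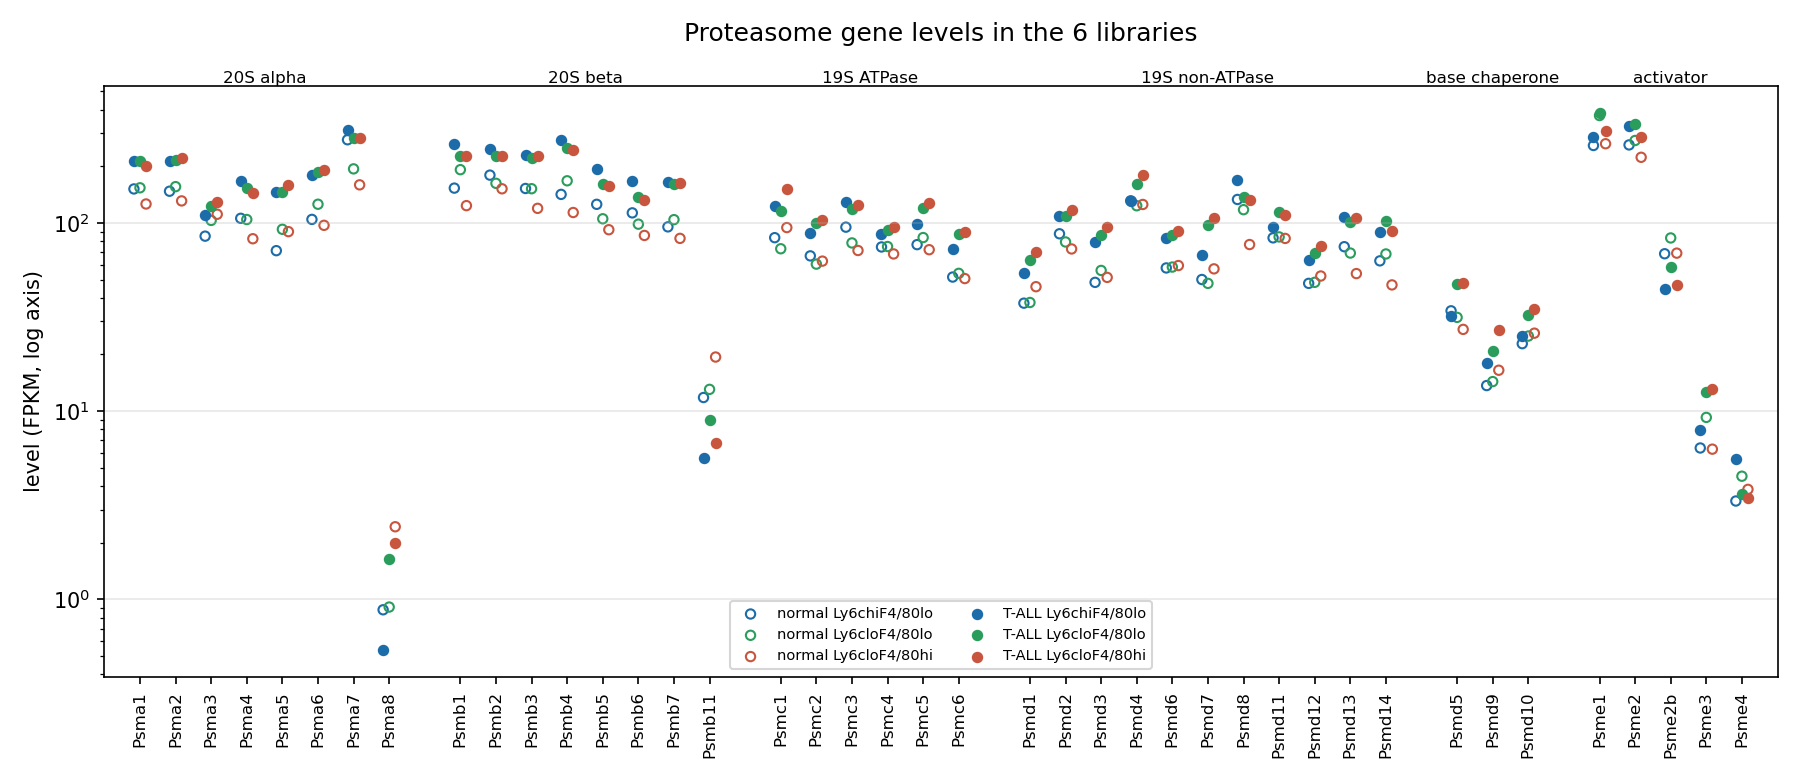
Level of each of the 41 proteasome genes in the 6 libraries, in FPKM on a log axis, grouped by role; open circles are normal, filled circles T-ALL, and colours mark the gates. Filled circles sit above open ones for most 20S and 19S genes, and below them for Psmb11 and Psme2b.

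Within a library the subunits of one particle that the rule took spread over a narrow range. Psma8 and Psmb11 were set apart in this description, since they encode tissue-restricted forms. Among the 14 other 20S subunits Psma7, an alpha ring subunit, was the highest in all 6 libraries, from 159 to 312 FPKM. The ratio of the highest to the lowest of the 14 was 1.93 to 3.88 per library. Among the 17 subunits of 19S that the rule took, Psmd1, the scaffold of the base, was the lowest in all 6 libraries, from 37.5 to 70.3 FPKM. The highest of the 17 was Psmd8, a lid subunit, in both Ly6chiF4/80lo libraries and Psmd4, a ubiquitin receptor, in the other four. Sem1, a 19S subunit outside the rule, was higher still in every library. It stood at 278, 248 and 194 FPKM in normal and at 396, 306 and 267 FPKM in T-ALL. The median 20S level was 1.79, 2.01 and 1.79 times the median 19S level in normal and 2.27, 1.99 and 1.85 times in T-ALL. The 20S median therefore lay above the 19S median in every library, by a margin that overlapped between states.

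The first question the design poses is how T-ALL differed from normal over the 3 gates. In T-ALL 17 of the 41 genes were higher (41.5%, against 8.20% of all 11616 tested genes called higher), and 2 were lower (Psmb11 and Psme2b, against 3.94% of all tested genes). The median difference of the 41 was 0.56 on the log2(FPKM + 1) scale, beside -0.03 over all tested genes. In 30 of the 41 every T-ALL library lay above every normal library (13.8% of all tested genes), in 2 every T-ALL library lay below (10.9% of all), and in 9 the states overlapped. The difference was positive in each of the 3 gates for 35 of the 41 (27.9% of all tested genes). Calls are adjusted p under 0.05 from limma with gate as a block and Benjamini-Hochberg adjustment over all tested genes, with 2 residual degrees of freedom. An exact test of 3 against 3 libraries could not go below p = 0.1.

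These calls rest on all 6 libraries. Without normal or T-ALL Ly6cloF4/80hi 0 members were called in either direction in limma. Of all tested genes 1.96% and 2.15% were then called higher, and 0.473% and 0.585% lower. At an unadjusted limma p under 0.05, 20 members were higher and 2 lower in either fit. With all 6 libraries these unadjusted counts were 30 and 2. Here and below, the share of all tested genes at an unadjusted p under 0.05 was not counted, so such counts stand without a background. Without normal or T-ALL Ly6chiF4/80lo 1 was called higher, Psmd7 (2.44% of the members, against 6.21% and 6.32% of all genes). In these fits 0 were called lower (1.48% and 1.54% of all genes). Leaving out normal Ly6cloF4/80lo left 2 higher (4.88%, against 5.39% of all) and 1 lower (2.24% of all). Leaving out T-ALL Ly6cloF4/80lo left 4 higher (9.76%, against 5.48% of all) and 1 lower (2.46% of all). In 5 of these 6 fits the share of members called higher was therefore below that of all tested genes. Leaving out either library of a gate removes that gate from the state term. Fits that drop the same gate thus rest on the same state differences and are not separate checks. The fit was also tested on simulated data with 200 changed genes of 11616. It recovered most changes of 4-fold but none of 1.5-fold or 2-fold, and the calls here are all under 2-fold. Of the genes called in the simulations, 100% were false at 1.5-fold and 5.42% at 4-fold. The real data gave more calls, 952 higher and 458 lower, than the simulations had changed genes. Over the 6 fits with a library left out, the median difference of the members moved less, from 0.48 to 0.61. On the 8428 genes with a mean of at least 5 FPKM, 19 of 39 members were called higher (11.2% of those genes) and 2 lower. Scaling mattered as well: with each library rescaled to the same FPKM sum, 5 of 41 were called higher (12.2%, against 6.78% of all) and 2 lower (4.88%, against 8.38% of all). That scaling moved the median of all genes to -0.17 and the median of the members to 0.41. The split of all called genes went from 952 higher and 458 lower to 837 higher and 1035 lower. The number of tested genes went from 11616 to 12345, since the fixed filter then acts on rescaled values. Rescaled to the mean sum of the libraries, which keeps the scale of the filter (11618 genes), the members again gave 5 and 2, and all genes 813 higher and 1000 lower.

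**Figure D2:**
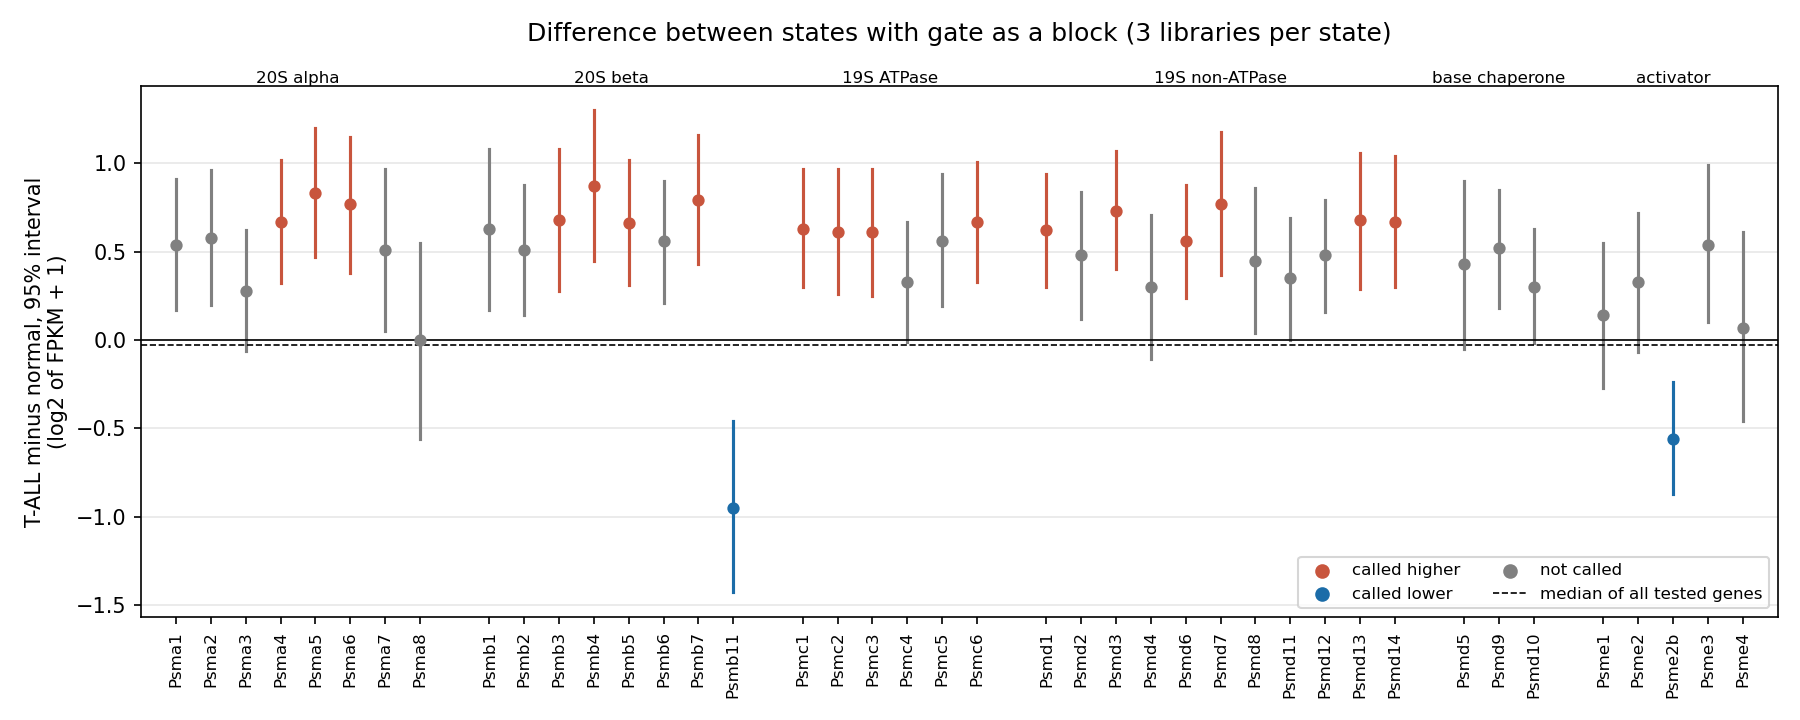
T-ALL minus normal for each member on the log2(FPKM + 1) scale, with its 95% interval from the fit with gate as a block; red marks genes called higher, blue called lower, grey not called, and the dashed line is the median of all tested genes (-0.03). The 17 red points lie between 0.56 and 0.87, and the 2 blue points at -0.95 and -0.56.

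Of the 8 alpha subunits, which form the outer rings of the core and its gate, 3 were called higher and the median difference was 0.56. Psma5 stood at 71.2, 92.5 and 89.9 FPKM in the normal libraries and at 146, 147 and 158 FPKM in T-ALL. Every T-ALL library exceeded the highest normal one, and the log2 difference was 0.83 (SE 0.15, limma adjusted p = 0.0253). Psma6 stood at 104, 126 and 97.1 FPKM in the normal libraries and at 179, 186 and 192 FPKM in T-ALL, again without overlap. Its log2 difference was 0.77 (SE 0.16, adjusted p = 0.0343). Psma4 was the other alpha subunit called, at 0.67. Psma1, Psma2 and Psma7 kept the 3 T-ALL libraries above the normal ones with differences of 0.51 to 0.58 that were not called. Psma3 overlapped between states, with 85.0, 103 and 111 FPKM in the normal libraries against 111, 124 and 129 FPKM in T-ALL.

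Psma7, the highest core subunit, moved unevenly across gates. Its levels were 276, 194 and 159 FPKM in the normal libraries and 312, 284 and 281 FPKM in T-ALL, so the normal libraries spread widely and the T-ALL libraries lay close together. The log2 difference was 0.51 (SE 0.19, limma adjusted p = 0.117). Psma8 encodes the alpha subunit of the testis proteasome that stands in for Psma7. It was close to the detection limit, at 0.88, 0.91 and 2.43 FPKM in the normal libraries and 0.54, 1.64 and 2 FPKM in T-ALL. In both states its highest level was in Ly6cloF4/80hi, and the states overlapped.

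Of the 8 beta subunits, which form the inner rings, 4 were called higher and 1 lower, with a median difference of 0.65. Psmb5 carries the chymotrypsin-like activity of the core and is the main target of proteasome inhibitor drugs. It went from 126, 105 and 92.0 FPKM in normal to 192, 160 and 158 FPKM in T-ALL, a log2 difference of 0.66 (SE 0.15, limma adjusted p = 0.0391). Psmb7, the trypsin-like subunit, went from 95.3, 104 and 82.8 FPKM to 164, 161 and 163 FPKM, a difference of 0.79 (SE 0.15, adjusted p = 0.0289). Psmb6, the caspase-like subunit, stood at 113, 98.5 and 85.8 FPKM in the normal libraries and at 168, 138 and 133 FPKM in T-ALL. Its T-ALL libraries all lay above its normal ones, but its difference of 0.56 (SE 0.14) missed the threshold with an adjusted p of 0.0531. For all 3 catalytic subunits the groups did not overlap.

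Among the beta subunits without a catalytic site, Psmb4 showed the largest increase of all members. Its levels were 142, 167 and 114 FPKM in the normal libraries and 275, 249 and 245 FPKM in T-ALL, a log2 difference of 0.87 (SE 0.18, limma adjusted p = 0.0323). Psmb3 was called higher at 0.68. Psmb1 and Psmb2 lay above normal in every T-ALL library, at 0.63 and 0.51, without being called.

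Psmb11 went the other way. It encodes the catalytic beta subunit known from cortical epithelial cells of the thymus, where it replaces Psmb5 and Psmb8. It was measured at 11.8, 13.1 and 19.4 FPKM in the normal libraries and at 5.63, 8.93 and 6.75 FPKM in T-ALL. Each T-ALL value lay below each normal one, and the log2 difference was -0.95 (SE 0.20, limma adjusted p = 0.0362). The fall was largest in Ly6cloF4/80hi, at -1.39, and smallest in Ly6cloF4/80lo, at -0.50. Psmb11 lies next to Psmb5 on chromosome 14, as the positions printed with their promoters show, and the neighbours changed in opposite directions.

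The 6 ATPases form the ring that unfolds substrates and opens the gate of the core. Of these, 4 were called higher (Psmc1, Psmc2, Psmc3 and Psmc6), and in all 6 the T-ALL libraries lay above the normal ones. Psmc6 stood at 51.6, 53.9 and 50.6 FPKM in the normal libraries, the tightest normal group of the ring, and at 73.1, 87.8 and 89.9 FPKM in T-ALL. The log2 difference was 0.67 (SE 0.14, limma adjusted p = 0.0363). Psmc1 went from 83.5, 72.9 and 94.4 FPKM to 123, 116 and 152 FPKM, with Ly6cloF4/80hi the highest gate in both states. Its difference was 0.63 (SE 0.14, adjusted p = 0.0393). Psmc5 was not called at 0.56 (adjusted p = 0.0624). Its state difference varied most between gates among the ATPases, with 76.6, 83.6 and 72.0 FPKM in the normal libraries and 98.6, 120 and 127 FPKM in T-ALL. Psmc4 differed least, at 0.33.

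Of the 11 non-ATPase subunits of 19S 6 were called higher: Psmd1, Psmd3, Psmd6, Psmd7, Psmd13 and Psmd14. Psmd7, the partner of the deubiquitinase Psmd14 in the lid, went from 50.03, 47.7 and 57.0 FPKM in normal to 67.1, 97.5 and 106 FPKM in T-ALL. The log2 difference was 0.77 (SE 0.17, limma adjusted p = 0.0379), and it ranged from 0.42 in Ly6chiF4/80lo to 1.01 in Ly6cloF4/80lo. Psmd3, another lid subunit, went from 48.3, 55.9 and 51.3 FPKM to 79.5, 85.8 and 95.01 FPKM, a difference of 0.73 (SE 0.14, adjusted p = 0.0279). Psmd14 itself, which removes the ubiquitin chain from the substrate, was called at 0.67, and Psmd1 at 0.62.

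A pair of the uncalled non-ATPase subunits overlapped between states. Psmd8 stood at 133, 118 and 76.7 FPKM in the normal libraries and at 169, 138 and 132 FPKM in T-ALL, so its normal Ly6cloF4/80hi library lay far below the others. The ubiquitin receptor Psmd4 was level in Ly6chiF4/80lo, at 131 FPKM in both states. In Ly6cloF4/80lo it was 123 FPKM in the normal libraries and 161 in T-ALL, and in Ly6cloF4/80hi 125 and 180 FPKM. Psmd2, Psmd11 and Psmd12 lay above normal in every T-ALL library, at 0.35 to 0.48, without being called.

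None of the 3 base assembly chaperones was called in limma (adjusted p from 0.0577 to 0.175), and 1, Psmd9, had an unadjusted p under 0.05. These proteins bind the ATPases during assembly and leave the finished particle. Psmd9 stood at 13.7, 14.4 and 16.5 FPKM in the normal libraries and 17.9, 20.8 and 27.1 FPKM in T-ALL, without overlap, and had the largest difference of the 3 (0.52, SE 0.14). Psmd5 stood at 34.1, 31.5 and 27.2 FPKM in the normal libraries and at 32.1, 47.2 and 48.1 FPKM in T-ALL. It was slightly lower in T-ALL in Ly6chiF4/80lo and higher in the other two gates. Psmd10 had a difference of 0.30.

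Of the 5 activators none was called higher in limma, Psme2b was called lower, and their median difference was 0.14. Whether activators and core subunits differed was not tested. At an unadjusted p under 0.05 there was 1 higher activator, Psme3. Psme1 and Psme2 encode the interferon-inducible cap known as PA28 alpha and beta, and they were among the most abundant members. Psme1 stood at 258, 372 and 263 FPKM in the normal libraries and at 285, 383 and 309 FPKM in T-ALL. Its Ly6cloF4/80lo library was the highest in both states, the states overlapped, and the log2 difference was 0.14 (SE 0.17), with a 95% interval from -0.27 to 0.55. Psme2 stood at 260, 274 and 223 FPKM in the normal libraries and at 327, 335 and 285 FPKM in T-ALL. The T-ALL libraries lay above the normal ones, at 0.33 (SE 0.16, limma adjusted p = 0.207).

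Psme2b is a second copy of Psme2 in the mouse genome. It stood at 68.6, 83.2 and 69.1 FPKM in the normal libraries and at 44.5, 58.4 and 46.8 FPKM in T-ALL, a log2 difference of -0.56 (SE 0.13, limma adjusted p = 0.0460). The Psme2 and Psme2b transcripts of the GENCODE M21 annotation were identical at 99.4% of 794 aligned bases, so reads can be split between them and the separate values are uncertain. With both genes summed, the difference was 0.17 (SE 0.17) and 1 member was called lower in place of 2.

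Psme3 and Psme4 encode nuclear activators, and both were low. Psme3 stood at 6.37, 9.26 and 6.28 FPKM in the normal libraries and at 7.91, 12.6 and 13.1 FPKM in T-ALL, with overlap and a log2 difference of 0.54 (SE 0.18, limma adjusted p = 0.0933). Psme4 stood at 3.33, 4.51 and 3.84 FPKM in the normal libraries and at 5.56, 3.62 and 3.45 FPKM in T-ALL. It was higher in T-ALL in Ly6chiF4/80lo and lower in the other two gates.

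The next question is whether the state difference was alike in the 3 gates. With 1 library per gate and state this was not tested, and the values are descriptions. The median within-gate difference of the 41 members was 0.45 in Ly6chiF4/80lo, 0.51 in Ly6cloF4/80lo and 0.72 in Ly6cloF4/80hi, beside -0.07, 0.00 and 0.02 for all tested genes. At least 1.5-fold apart in either direction were 11 of the 41 members in Ly6chiF4/80lo, a share below the 29.0% of all tested genes. Of the 11, 9 were higher in T-ALL. In Ly6cloF4/80lo there were 10 of the 41, a share close to the 20.3% of all tested genes, and all were higher. In Ly6cloF4/80hi there were 29 of the 41 (35.4% of all tested genes), 28 of them higher. The shares of all genes cover both directions, and the share higher alone was not counted. Rescaled to the same FPKM sum, the within-gate medians of the members were 0.27, 0.47 and 0.51.

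Ly6cloF4/80hi had the difference of largest size among the 3 gates for 33 of the 41 genes (45.8% of all tested genes). For the 31 widely expressed 20S and 19S subunits, that is without Psma8, Psmb11, the chaperones and the activators, it was the lowest gate in normal for 21 (36.7% of all tested genes) and the highest gate in T-ALL for 16 (31.4% of all tested genes). The median ratio of the highest to the lowest gate over these 31 genes was 1.26 in normal and 1.15 in T-ALL, and it was wider in normal for 19 of the 31. In normal Ly6cloF4/80hi, for example, Psmd13 stood at 53.8 FPKM against 74.7 and 69.2 FPKM in the other gates. In T-ALL it stood at 108, 101 and 106 FPKM.

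**Figure D3:**
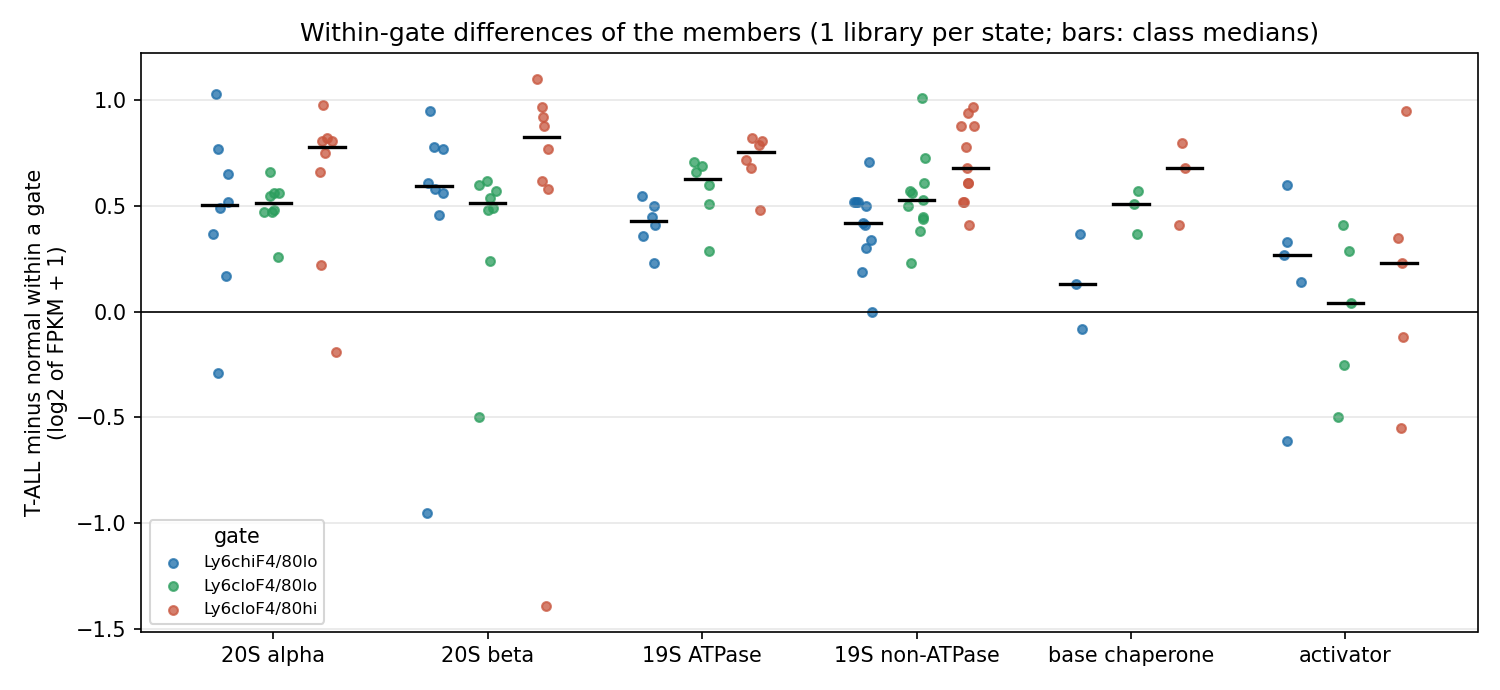
T-ALL minus normal within each gate on the log2(FPKM + 1) scale, 1 point per member, by role and gate; the black bars are class medians and each point compares 2 libraries. The 20S and 19S points lie mostly between 0.2 and 1.1, and the 3 negative points of the beta class, down to -1.39, are Psmb11.

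The last comparison the design allows is how the gates differed with state as a block. In limma 0 of 41 members were called in each of the 3 contrasts between gates, where 12.8% of all tested genes were called between Ly6cloF4/80hi and Ly6chiF4/80lo, 4.73% between Ly6cloF4/80lo and Ly6chiF4/80lo, and 3.56% between Ly6cloF4/80hi and Ly6cloF4/80lo. At an unadjusted p under 0.05 there were 3, 1 and 0 members in the same order. The 3 were Psma8, Psmd9 and Psmd8. Psma8 was 0.91 higher in Ly6cloF4/80hi than in Ly6chiF4/80lo on the log2 scale (SE 0.28, limma adjusted p = 0.0847), the lowest adjusted p of any member between gates. Psmd9 was 0.41 higher (SE 0.17), and Psmd8 had a difference of -0.57 (SE 0.21). The 1 was Psme3, 0.54 higher in Ly6cloF4/80lo than in Ly6chiF4/80lo (SE 0.22, limma adjusted p = 0.188). Psme1 had a difference of 0.48 in the same contrast (SE 0.21). The median differences of the members were 0.04, 0.06 and -0.06 in these 3 contrasts, beside 0.12, 0.19 and -0.10 for all tested genes.

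The immunosubunits replace the catalytic subunits in new cores, so each pair was set side by side. Psmb8 was 3.12, 3.64 and 2.93 times as abundant as Psmb5 in normal and 2.64, 2.78 and 2.14 times in T-ALL. Psmb10 was 1.09, 0.922 and 1.04 times as abundant as Psmb7 in normal and 0.624, 0.654 and 0.543 times in T-ALL. Both ratios were lower in T-ALL in every gate, without overlap between the states. Psmb9 over Psmb6 gave 1.84, 3.03 and 2.51 in normal and 2.07, 2.40 and 1.91 in T-ALL, higher in Ly6chiF4/80lo and lower in the other two gates. The ratios carry no test of their own, since 3 pairs could not go below an exact p of 0.25. In limma none of the 3 immunosubunits was called: Psmb8 differed by 0.31 (SE 0.17), Psmb9 by 0.37 (SE 0.19) and Psmb10 by 0.05 (SE 0.14), with adjusted p of 0.256, 0.217 and 0.803. At an unadjusted p under 0.05 there were 0 as well.

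**Figure D4:**
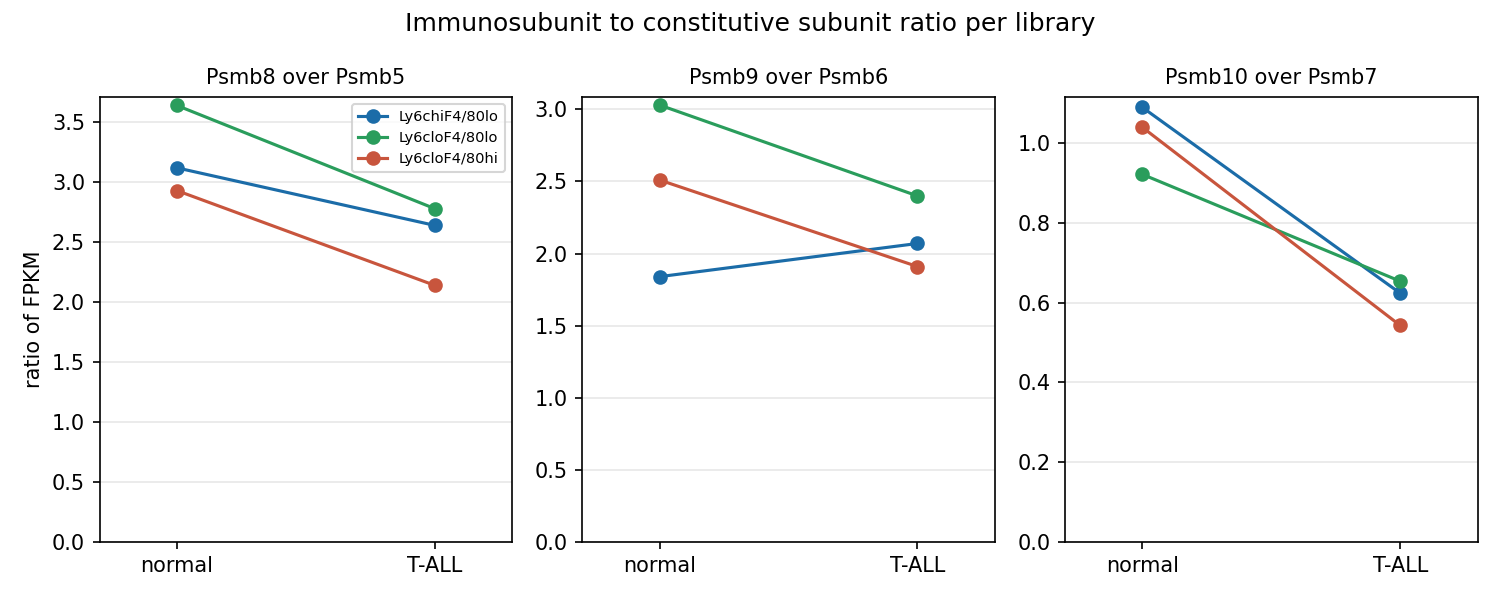
Ratio of each immunosubunit to the constitutive subunit it replaces, in FPKM over FPKM, for normal and T-ALL, with 1 line per gate and the axis starting at 0. The Psmb8 over Psmb5 and Psmb10 over Psmb7 lines fall in all 3 gates, and the Psmb9 over Psmb6 line rises in Ly6chiF4/80lo from 1.84 to 2.07.

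Genes that act with the proteasome moved by different amounts. Of 5 measured assembly factors of the core 2 were called higher, Psmg2 and Psmg1, which together chaperone the alpha ring. Psmg2 went from 14.0, 29.0 and 18.9 FPKM to 33.3, 51.2 and 49.1 FPKM, a log2 difference of 1.11 (SE 0.15, limma adjusted p = 0.0146), and Psmg1 differed by 0.96. Of 16 proteasome-associated proteins, including the 19S subunits Adrm1 and Sem1, 3 were called higher and 0 lower. They were Txnl1, a thioredoxin-like protein bound to 19S, at 1.09 (SE 0.13), and the 19S deubiquitinases Uchl5 at 0.68 and Usp14 at 0.60. Adrm1 and Sem1 differed by 0.40 and 0.42 and were not called.

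None of 8 tested regulators of proteasome transcription was called in limma, in either direction, and their median difference was 0.07. At an unadjusted p under 0.05 there were 1 higher and 1 lower. Among them, Nfe2l2, which encodes NRF2, stood at 111, 45.8 and 42.1 FPKM in the normal libraries and at 80.2, 71.0 and 53.7 FPKM in T-ALL. The small Maf partner genes Mafg and Mafk differed by 0.50 and -0.44 (adjusted p = 0.121 and 0.130). Nfe2l1, the activator of proteasome genes when the proteasome is inhibited, was chosen after its values were seen. It stood at 16.3, 19.9 and 31 FPKM in the normal libraries and at 18.95, 19.6 and 22.5 FPKM in T-ALL.

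Upstream of the proteasome, 3 of 14 ubiquitin conjugating enzymes were called higher and 0 lower. Ube2c and Ube2s, which serve the anaphase-promoting complex in mitosis, differed by 1.90 (SE 0.15) and 1.01 (SE 0.18), and Cdc34 by 0.72 (SE 0.16). Of 9 genes for the unfoldase p97 and its cofactors none was called in limma, and 3 were higher at an unadjusted p under 0.05. Vcp, p97 itself, was at 0.62 (SE 0.16, limma adjusted p = 0.0523).

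A further pair of large complexes were counted for comparison. Of 10 genes of the COP9 signalosome, which is built like the 19S lid, 2 were called higher (Cops3 and Cops5), with a median of 0.45. Of 8 genes of the CCT chaperonin, a cytosolic folding machine that is not part of the proteasome, 5 were called higher, with a median of 0.80. Tcp1 went from 58.0, 85.8 and 56.4 FPKM to 104, 148 and 152 FPKM, a log2 difference of 1.01 (SE 0.18, limma adjusted p = 0.0242). These counts stand beside the same 8.20% of all tested genes, and nothing particular to the proteasome follows from the size of its own count.

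**Figure D5:**
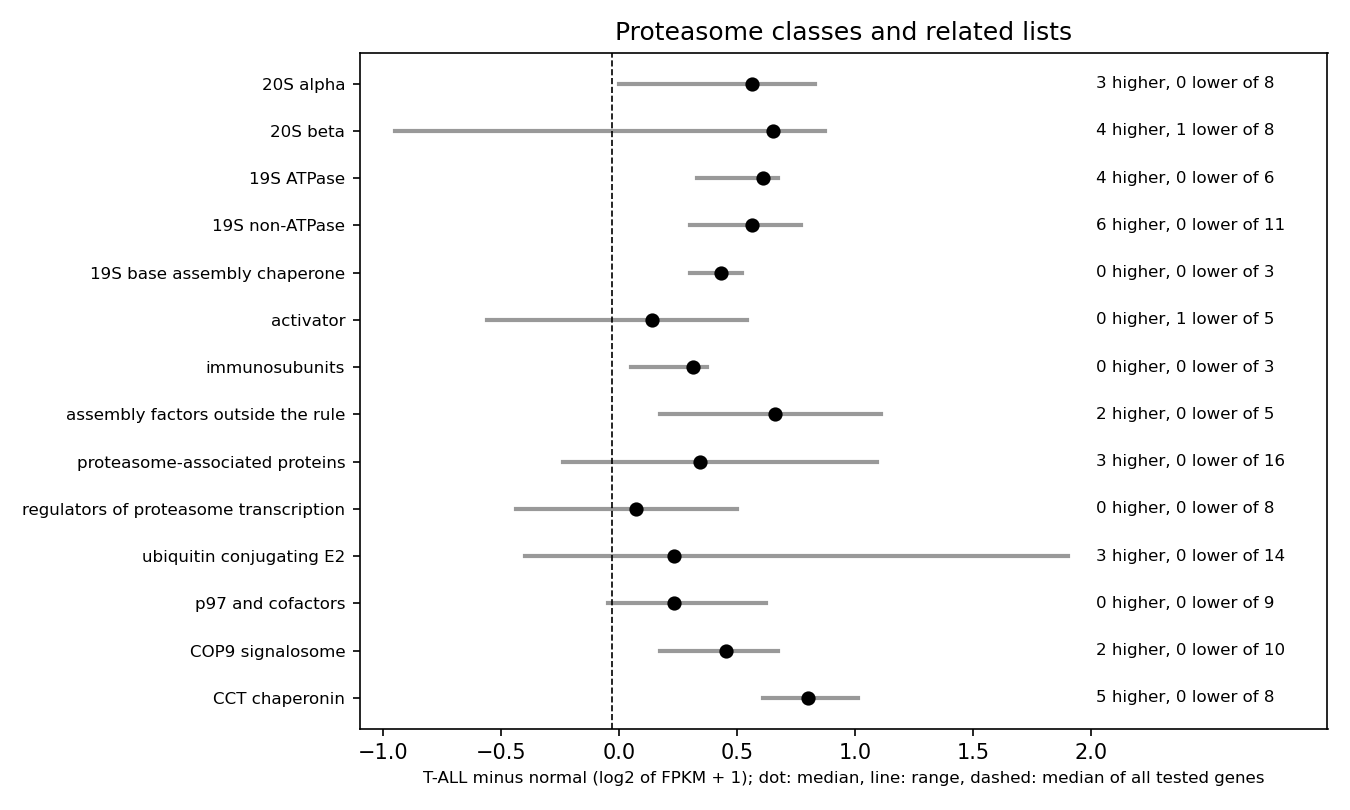
Median (dot) and range (line) of T-ALL minus normal on the log2(FPKM + 1) scale for the 6 classes of members and 8 related lists, with the number of genes called; the dashed line is the median of all tested genes (-0.03). The 20S, 19S and CCT medians lie between 0.56 and 0.80, and the activator and regulator medians at 0.14 and 0.07.

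Marker lists of other cells and of dividing cells moved with state beside these results. All 10 cell cycle markers were called higher in T-ALL, and their summed level went from 183, 273 and 195 FPKM to 738, 852 and 1158 FPKM. Of 10 erythroid markers 4 were called higher, with sums of 780, 573 and 4471 FPKM in the normal libraries and 802, 5615 and 36023 FPKM in T-ALL. Of 7 myeloid progenitor markers 6 were called higher (243, 74.8 and 27.5 FPKM to 1747, 335 and 86.7 FPKM), and of 7 plasma cell markers 6 were called higher (5883, 763 and 469 FPKM to 14721, 1741 and 1691 FPKM). Of 8 red pulp macrophage markers 6 were called lower (767, 561 and 8838 FPKM to 418, 390 and 2673 FPKM), and of 6 dendritic cell markers 4 were called lower (324, 257 and 104 FPKM to 76.1, 113 and 52.7 FPKM).

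By gate, the median difference of the erythroid markers was 0.37, 3.08 and 3.43, beside 0.45, 0.51 and 0.72 for the members. In Ly6chiF4/80lo Hba-a1, the most abundant erythroid marker, stood at 461 FPKM in normal and 399 FPKM in T-ALL. The other 9 erythroid markers were higher in T-ALL in each of the 3 gates (27.9% of all tested genes). Among these, the erythroid factor Klf1 stood at 1.51 and 3.86 FPKM in Ly6chiF4/80lo. The median difference of the cell cycle markers was 2.13, 1.70 and 2.70, and that of the neutrophil markers 1.68, -1.85 and -0.68. The summed neutrophil markers went from 12990 to 43470 FPKM in Ly6chiF4/80lo and from 361 to 90.2 FPKM in Ly6cloF4/80lo. Of 8 neutrophil and 6 B cell markers none was called over the 3 gates in limma, and 0 and 1 had an unadjusted p under 0.05. Of 6 T cell markers 1 was lower, of 5 tested monocyte markers 1 was lower, and of 7 general macrophage markers 2 were lower. By gate the median difference of the T cell markers was -0.56, -0.55 and 0.69. In Ly6cloF4/80hi Cd3e stood at 2.22 FPKM in normal and 10.84 FPKM in T-ALL, and Cd3g at 3.29 and 13.64 FPKM. Cd3d and Lck were also higher in T-ALL in that gate, while Cd4 and Cd8a were lower. All 10 cell cycle markers were higher in each of the 3 gates. So were 35 of the 41 members (27.9% of all tested genes), while 2 were lower in each gate and 4 changed sign between gates. For the members lower in each gate or changing sign, the share of all tested genes was not counted. The part of dividing cells or other cell types in the proteasome differences was not tested.

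Promoter letters were counted over windows from 250 bases before to 50 bases after each annotated start. Of the 41 members, 34 had at least 1 such window, 37 windows in all. CCGGAAG on either strand was in 13 of the 37 (35.1%), beside 8.86% of all 32851 windows and 14.5% of the 16090 windows of genes listed in the files. These windows belong to 12 members. It was present in 6 of 13 members called higher that had a window, as in Psmc6 above, in 6 of 19 that were not called, as in Psmd4, and in 0 of the 2 called lower. TGACNNNGC on either strand was in 6 of the 37 windows (16.2%), beside 12.4% of all and 14.0% of those of genes in the files. They belong to Psmb5, Psmb6, Psmc6, Psmd9, Psmd12 and Psme4, and the Psmb5 match is printed above. CCAAT was in 13 of the 37 (35.1%), beside 37.4% of all, and the match of Psmb11 lies outside its printed bases. The patterns were searched separately, so matches may overlap. A match is a description of letters, and no binding was measured.

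Overlapping annotation limits a few values. By RefSeq annotation, 12 of the 41 members overlap another annotated gene, 6 of them among those called higher and 1, Psme2b, among those called lower. Whether the counting used strand is not given in the sources used here, so reads of overlapping genes cannot be told apart.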

How the data were processed

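Total RNA of the 6 sorted fractions was prepared with QIAGEN RNeasy columns, and libraries followed Illumina HiSeq protocols, per the labels' protocols. The authors deposited FPKM values by Entrez gene identifier, one file per library. Bowtie2 2.2.5 and RSEM are the tools named in the submitters' processing notes. Genome build, annotation, RSEM version and strandedness: not given in the sources used here. Genes absent from a file count as 0 FPKM. Symbols came from a RefSeq table of GRCm38.p6 and were found for 16017 of 16058 identifiers (99.7%).

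Values were put on the log2(FPKM + 1) scale, which understates fold changes of low genes. The 11616 genes that reached 1 FPKM in 2 or more libraries were fitted with limma 3.58.1 (R 4.3.3, statmod 1.5.0) in 1 linear model of gate and state with a trended and robust prior. Tests were two-sided, with Benjamini-Hochberg adjustment over all tested genes and a threshold of 0.05. Within a gate there is 1 library per state and no test. Depth was estimated from the spacing of low FPKM values in 438 to 485 genes with a single GENCODE M21 transcript length per library. Other steps used Python 3.11.15, numpy 2.4.6, pandas 2.3.3, matplotlib 3.10.9 and Biopython 1.88. The depth estimate and the fit were tested on simulated data, and what the fit recovered is given beside its calls. The simulated depth test drew whole counts on the same transcript lengths, so it cannot show how well the real values follow that spacing.

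The members and lists were chosen with earlier results of these data known. Named were the catalytic subunits, the 2 members of largest change per class, the activators, the 3 members of largest difference per gate contrast and the member whose gates differed most per class, and up to 3 genes of largest change per related list. The result of 1 further related list is not reported here. Paaf1 of the assembly factors and Trac of the T cell markers matched no listed gene, and Nfe2l3 and 1 monocyte marker did not pass the filter. Alternative settings were another pseudocount (0.1), no filter or a mean filter (5 FPKM), median-ratio, sum and quantile scaling, limma without trend and robust prior, no block, and each library left out. Summing Psme2 with Psme2b and rescaling to the mean FPKM sum were added after seeing the data.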

Additional observations from a re-analysis of the deposited data

Results flagged for a closer look

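In 4 members the state difference had opposite signs in different gates, while 37 of the 41 kept 1 sign in all 3 gates. With 1 library per gate and state, the difference between gates was not tested in any of them. The share of all tested genes with opposite signs was not counted, so these counts stand without a background. Psmd5 differed by -0.08 in Ly6chiF4/80lo, 0.57 in Ly6cloF4/80lo and 0.80 in Ly6cloF4/80hi, a gap of 0.88 between the highest and the lowest gate on the log2(FPKM + 1) scale. Psme4 differed by 0.60, -0.25 and -0.12, a gap of 0.85. Psma8 differed by -0.29, 0.47 and -0.19, a gap of 0.75, at levels of at most 2.43 FPKM. Psmd4 differed by 0.00, 0.38 and 0.52, a gap of 0.52, with the Ly6chiF4/80lo ratio of T-ALL to normal at 0.997.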

How the results depend on the processing

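Against 17 members called higher and 2 lower in T-ALL (8.20% and 3.94% of all genes), the counts were 18 and 2 with a pseudocount of 0.1 (9.70% and 4.82% of all), 17 and 2 with median-ratio scaling (7.74% and 3.92%), and 19 and 2 of the 39 members with a mean of at least 5 FPKM (11.2% and 5.78%). They were 5 and 2 with each library rescaled to the same FPKM sum (6.78% and 8.38%), also 5 and 2 rescaled to the mean sum (813 and 1000 of 11618 genes), 6 and 2 with quantile normalization (6.50% and 4.62%), and 7 and 1 with neither trend nor robust prior (6.57% and 2.85%). In limma they were 0 and 0 without a filter on low values (1.82% and 0.480% of 16058 genes) and 0 and 0 with no block (1.27% and 0.121%). There 29 and 2, and 26 and 2, members had an unadjusted limma p under 0.05, and the share of all genes was not counted. With Psme2 and Psme2b summed the adjusted counts were 17 and 1. Leaving out 1 library gave 0 to 4 higher and 0 to 1 lower, and leaving out either library of a gate removes that gate from the state term. Each of the 17 lost its call in 6 to 12 of 16 alternatives, Psma5 in the fewest. Of the 2 called lower, Psmb11 lost its call in 6 of 16 alternatives and Psme2b in 9 of 15. The median difference of the members stayed between 0.41 and 0.61 in all of these settings. No member was called between gates in any of them.

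The sign of 4 uncalled genes changed. Psma8 (-0.00) ranged from -0.24 to 0.14 with 1 library left out. Psme4 (0.07) ranged from -0.19 to 0.24 with 1 library left out and became -0.05 with either sum rescaling. Psme1 (0.14) became -0.01 with either sum rescaling and -0.07 with quantile normalization, and Psme3ip1 (0.12) became -0.02 with either sum rescaling. Where a call was lost, the cause was not tested. The fit with gate as a block pairs the normal and T-ALL library of each gate, which gives 3 pairs. By replicate number no paired analysis was possible because each group holds a single library. Counting error was estimated for a transcript of 1 kb and not for each member.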

Other observations

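The rule on symbols also took Psmc3ip and Psme3ip1, which encode no proteasome subunit. Psmc3ip, a cofactor of recombination in meiosis named for binding Psmc3, stood at 3.36, 6.08 and 2.74 FPKM in normal and at 10.8, 16.2 and 12.6 FPKM in T-ALL. Every T-ALL library exceeded every normal one, and the log2 difference of 1.53 (SE 0.17, limma adjusted p = 0.00994) was larger than that of any of the 41 proteasome genes. Psme3ip1, named for binding Psme3, stood at 39.3, 39.7 and 34.9 FPKM in normal and at 40.1, 44.8 and 39.6 FPKM in T-ALL, a difference of 0.12 (SE 0.13).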
